A study of Mus musculus with 12 samples.

Results

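A set of 10 genes long used to mark or define the hematopoietic stem cell were followed by name through 12 RNA sequencing libraries of mouse marrow progenitors. They are Hlf, Mecom, Angpt1, Mycn, Tek, Mllt3, Slamf1, Esam, Nrgn and Ctnnal1. All 10 were found among the 55450 genes of the count table by their symbols. Earlier results of these data were known when the list was chosen. The cells were of donor origin, lacked lineage markers and carried the Kit receptor (Lin- ckit+, shortened to LK). They were sorted from marrow of mice that had received a competitive transplant, in which donor and competitor cells repopulate 1 host together. The 4 groups of 3 libraries differed in the genotype of the donor cells. They were WT, Tet2 KO (written Tet2KO in the titles), Id1 KO (Id1KO), and Tet2 KO + Id1KO, which the titles call dKO. The host's own strain, the kind of null allele, any Cre driver, the ages and the time after transplant are not given in the sources used here. Each genotype carries a single sample number in the titles, and its 3 libraries are set apart only by the endings none, 2x and 3x, numbered 1 to 3 below. The libraries may therefore be repeats of 1 pool of cells. Every p-value below measures only the spread between these libraries, which may be technical, except in a fit on summed libraries. What is particular to the pool and what belongs to the genotype cannot be told apart.

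Stem cells of the marrow are rare, divide seldom, and supply all blood lineages. A small set of transcription factors keeps them undifferentiated: HLF, a bZIP protein of the PAR family, EVI1 and its longer forms, zinc finger proteins made from Mecom, and N-MYC, made from Mycn. MLLT3, also known as AF9, reads acylated histones and brings in the histone methyltransferase DOT1L. Angiopoietin 1, the product of Angpt1, is a secreted ligand of the receptor TIE2, which Tek encodes and which stem cells share with endothelium. SLAMF1, also called CD150, and ESAM are surface proteins used to sort stem cells. Neurogranin (Nrgn) binds calmodulin, and alpha-catulin (Ctnnal1) resembles alpha-catenin. TET2 oxidises 5-methylcytosine at CpG sites, and its loss is frequent in clonal hematopoiesis. ID1 has no DNA-binding region of its own and holds E proteins away from the E-box, their binding sequence.

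The libraries held 15706407 to 19959183 estimated counts. Levels are given in CPM, each gene's count relative to its library's total, with totals scaled by trimmed means, and as mean ± SD over 3 libraries. Tet2 itself stood at 99.3 ± 2.2 CPM in the WT libraries, 130.0 ± 2.5 with the Tet2KO label, 92.0 ± 1.5 with Id1KO and 118.0 ± 3.1 with dKO. Id1 stood at 1.47 ± 0.27, 3.86 ± 0.42, 3.96 ± 0.34 and 3.93 ± 0.50 CPM in the same order. Neither gene was lower in the libraries whose labels call it null, and Id1 was lowest in the libraries labelled WT. The table counts whole genes, and the exons a null allele would lack are not given in the sources used here, so transcripts from such an allele would still be counted. All groups are accordingly libraries labelled with a genotype, and every direction below rests on the labels. The sort itself was visible: Kit stood at 315.0 to 365.0 CPM by genotype, and Cd3e of T cells had at most 1 count in any library. Other surface markers used for stem cells ranged widely in counts per library, from 7 to 22 of Ly6a (Sca-1) and 13 to 28 of Procr to 1526 to 2064 of Itga6 and 4534 to 6802 of Cd34, which other progenitors carry as well.

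RefSeq promoter windows (GRCm38.p6, 250 bases before to 50 after a start site) were found for 8 of the 10 members. They gave 10 windows in all. Angpt1 and Esam had none. ID1 acts on factors that bind E-boxes, and TET2 acts at CpG. Stretches upstream of the start sites of Tek, Mycn, Hlf and Mllt3, 4 of the members that changed, are therefore shown. Mecom and Slamf1 also changed and had windows, which are not shown. The stretches read 5′ to 3′ on the gene's own strand, with each E-box (CANNTG) in capitals.
Tek chr4:94739039-94739288, plus strand: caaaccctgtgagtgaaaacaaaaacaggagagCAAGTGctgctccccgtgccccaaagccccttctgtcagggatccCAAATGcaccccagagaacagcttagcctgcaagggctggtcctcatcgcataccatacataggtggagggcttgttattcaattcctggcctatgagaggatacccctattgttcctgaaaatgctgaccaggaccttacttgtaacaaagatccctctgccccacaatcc
Mycn chr12:12941915-12942086, minus strand: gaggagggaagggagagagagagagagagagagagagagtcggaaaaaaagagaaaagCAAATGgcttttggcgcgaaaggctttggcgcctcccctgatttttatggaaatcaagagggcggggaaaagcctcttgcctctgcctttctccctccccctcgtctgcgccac
Hlf chr11:90390918-90391167, minus strand: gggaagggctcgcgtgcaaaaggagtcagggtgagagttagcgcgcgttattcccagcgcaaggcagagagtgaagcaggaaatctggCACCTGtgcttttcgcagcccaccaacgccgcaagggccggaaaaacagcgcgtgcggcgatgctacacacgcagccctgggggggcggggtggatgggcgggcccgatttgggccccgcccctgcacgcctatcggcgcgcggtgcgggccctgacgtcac
Mllt3 chr4:88033408-88033657, minus strand: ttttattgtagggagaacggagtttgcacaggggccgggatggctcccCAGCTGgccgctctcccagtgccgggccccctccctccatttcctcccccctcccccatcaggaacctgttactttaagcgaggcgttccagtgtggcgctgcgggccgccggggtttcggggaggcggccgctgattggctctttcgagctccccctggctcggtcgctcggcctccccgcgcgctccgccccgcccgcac
The 4 windows differ in CpG. Over the full window of 300 bases, Tek held 3 CpG, Mycn 14, this Mllt3 start 29 and Hlf 30, against a median of 7 over 32851 windows of the annotation. An E-box stood in 8 of the 10 member windows, and 72.3% of all windows hold one. The member windows without an E-box were that of Ctnnal1 and that of a Mecom start. Searched on either strand, and with overlaps between motifs left in, GATAA stood in 4 member windows (25.4% of all), GGAAGT in 1 (23.8%), TGTGGT in 0 (16.8%) and TTACGTAA in 0 (0.119%). A match is a run of letters and not a measured binding site.

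The members lie apart in the genome but for a neighbouring pair. In GENCODE M21 (GRCm38), Hlf lies at chr11:90336536-90390895, Mecom at chr3:29951296-30548008, Mycn at chr12:12936093-12941914, Mllt3 at chr4:87769925-88033364, Angpt1 at chr15:42424723-42676977 and Ctnnal1 at chr4:56810935-56865188, all on the minus strand. Tek lies at chr4:94739289-94874976 and Slamf1 at chr1:171767127-171801184 on the plus strand. The pair is Esam, at chr9:37528078-37538319 on the plus strand, and Nrgn, at chr9:37544492-37552904 on the minus strand. All 10 are annotated as protein coding, and values are sums over their exons.

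All 10 members passed the filter on low counts, so none is missing from the tests that follow. Per kilobase of exon and averaged over all libraries, Angpt1 stood highest at 16.8 CPM per kb, followed by Nrgn at 4.34, Mycn at 2.81, Mllt3 at 2.29, Hlf at 1.57 and Tek at 1.52. Ctnnal1, Esam, Slamf1 and Mecom were low, at 0.787, 0.553, 0.476 and 0.30 CPM per kb. Their scarcity sets the precision: Esam had only 20 to 37 counts per library, Mecom 33 to 92 and Slamf1 38 to 74.

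**Figure D1:**
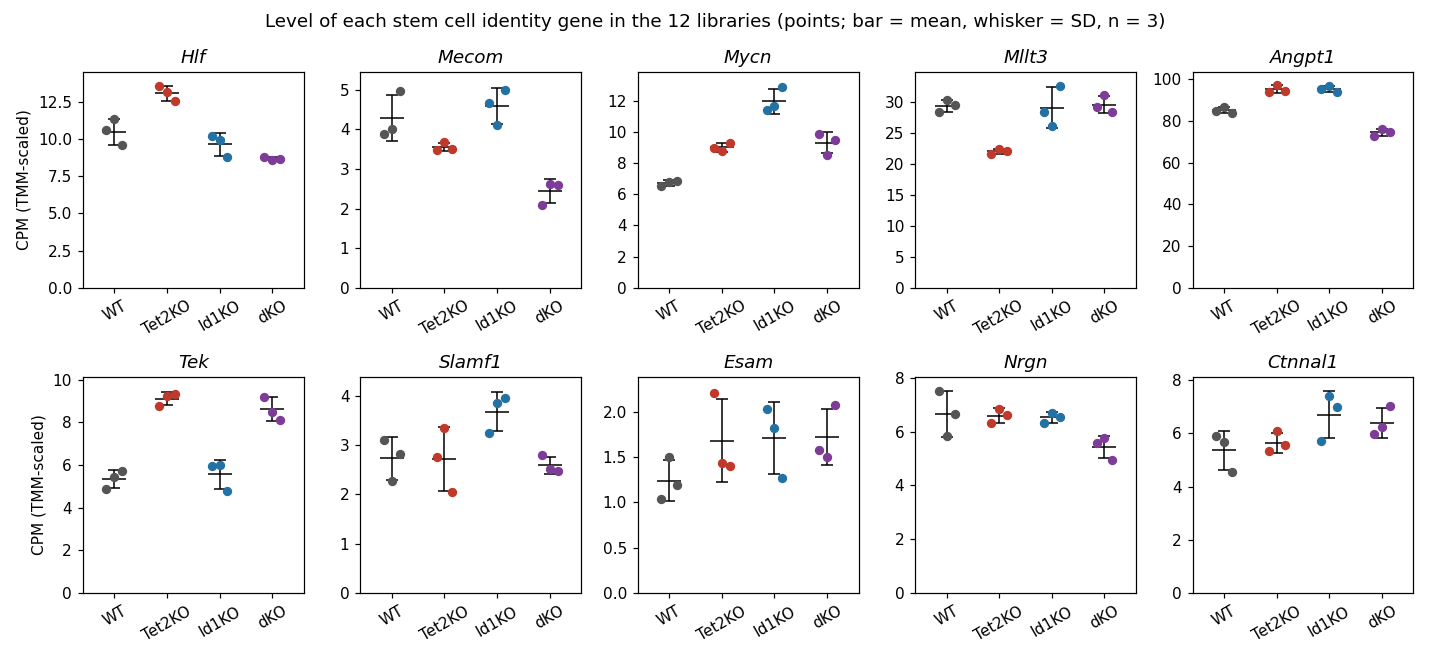
Level of each member (vertical axis, CPM after trimmed-mean scaling, from 0) in the 4 groups of libraries; points are the 3 libraries, the bar is their mean and the whisker their SD. Angpt1 is lowest in dKO (72.7 to 76.2 CPM), Mllt3 is lowest in Tet2KO (21.6 to 22.4 CPM), and Tek is high in Tet2KO and dKO alike.

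Changes of these genes were modest in size and went in both directions in 4 of the 5 pairwise comparisons. The test was edgeR's quasi-likelihood test over 14346 genes with Benjamini-Hochberg adjustment, and a gene is called changed at an adjusted p under 0.05. In Tet2KO against WT, 4 of the 10 members were higher (Hlf, Mycn, Angpt1, Tek) and 1 was lower (Mllt3), where 16.6% of all genes tested were called higher and 16.2% lower. In Id1KO against WT, 2 were higher (Mycn, Angpt1) and 0 lower, against 7.26% and 7.77% of all genes. In dKO against WT, 2 were higher (Mycn, Tek) and 3 lower (Hlf, Mecom, Angpt1), against 10.2% and 8.97%.

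The dKO libraries were also set against each single null. Against Tet2KO, 1 member was higher in dKO (Mllt3) and 3 were lower (Hlf, Mecom, Angpt1), where 13.1% of all genes were called higher and 13.4% lower. Against Id1KO, 1 was higher (Tek) and 4 were lower (Mecom, Mycn, Angpt1, Slamf1), against 10.6% and 8.7%. These 5 comparisons share libraries, and their counts are not independent of each other. The median log2 fold change of the members was 0.12, 0.13, -0.03, -0.07 and -0.21 in the order given, with medians over all genes tested between -0.01 and 0.00. In absolute size the member medians were 0.29, 0.14, 0.29, 0.23 and 0.31, against 0.13, 0.10, 0.10, 0.12 and 0.10 over all genes. Members and all genes were not matched for level here. Scarce members that were not called also enter these medians, such as Esam in dKO against WT (0.47 ± 0.25 SE). When edgeR was asked for changes beyond 1.2-fold, 1, 1, 2, 1 and 3 members were still called. Of the 14346 genes tested, 769, 140, 477, 334 and 481 were called in the same order. In LK cells as a bulk, fewer stem cells in the sort and less RNA per cell cannot be told apart.

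**Figure D2:**
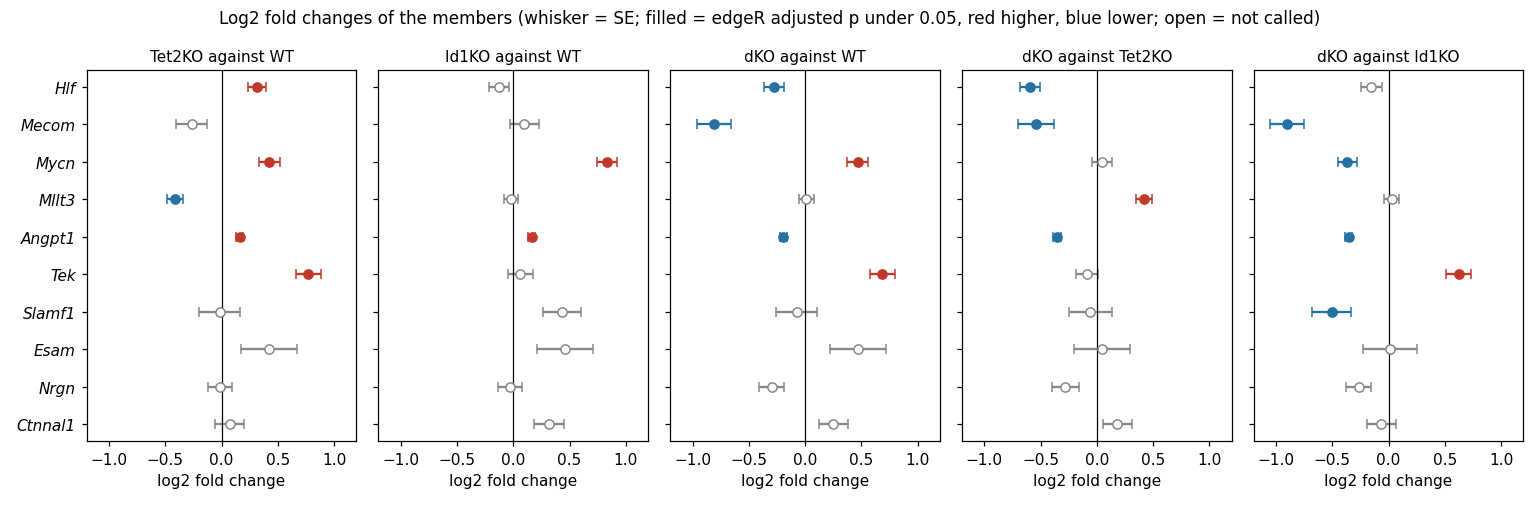
Log2 fold change of each member (horizontal axis; whisker is the SE of edgeR's fit) in the 5 pairwise comparisons; filled red points are called higher, filled blue points lower, and open points are not called. Angpt1 is called in all 5 comparisons, Mycn in 4, and Esam, Nrgn and Ctnnal1 in none.

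Among the transcription factors, Hlf was highest in the libraries labelled Tet2KO. It stood at 10.6, 11.4 and 9.62 CPM in the WT libraries, 13.6, 13.2 and 12.6 with the Tet2KO label, 10.2, 9.99 and 8.80 with Id1KO, and 8.81, 8.62 and 8.68 with dKO. Every Tet2KO library lay above every other library, while the Id1KO and dKO libraries overlapped. Hlf was 1.24-fold higher in Tet2KO than in the WT libraries (log2 fold change 0.32 ± 0.084 SE, adjusted p = 0.00655) and 1.51-fold lower in dKO than in Tet2KO (-0.59 ± 0.088, adjusted p = 4.85e-05). Against WT, dKO was 1.21-fold lower (-0.28 ± 0.09, adjusted p = 0.0345). That last call was lost without either of WT libraries 1 and 2 or any 1 of the 3 dKO libraries, with adjusted p up to 0.163 and a log2 fold change of -0.22 without WT library 2, and DESeq2 gave an adjusted p of 0.133. Id1KO against WT (-0.13 ± 0.087, adjusted p = 0.365) and dKO against Id1KO (-0.15 ± 0.091, adjusted p = 0.273) did not pass.

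Mecom was lowest in the dKO libraries. Its level was 3.89, 4.02 and 4.97 CPM in the WT libraries, 3.49, 3.69 and 3.50 with the Tet2KO label, 4.67, 4.11 and 5.01 with Id1KO, and 2.09, 2.63 and 2.60 with dKO. No dKO library reached the level of any other library, and the WT and Id1KO libraries overlapped. Mecom was 1.75-fold lower in dKO than in WT (-0.81 ± 0.15, adjusted p = 0.000632) and 1.87-fold lower than in Id1KO (-0.90 ± 0.15, adjusted p = 0.000179). Against Tet2KO it was 1.45-fold lower (-0.54 ± 0.16, adjusted p = 0.015), a call that was lost without dKO library 1 (-0.45, adjusted p = 0.0691) and by DESeq2 (adjusted p = 0.0564). All 3 Tet2KO libraries lay below the 3 WT libraries, but that difference did not pass (-0.27 ± 0.14, adjusted p = 0.151). Its 17 annotated transcripts, short and long, are summed in these values.

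Mycn was lowest in WT and highest in Id1KO. It stood at 6.53, 6.81 and 6.86 CPM in the WT libraries, 9.01, 8.76 and 9.32 with the Tet2KO label, 11.4, 11.7 and 12.9 with Id1KO, and 9.89, 8.56 and 9.51 with dKO. The order of the groups was WT, then Tet2KO and dKO, which overlapped, then Id1KO, which lay above all others. Mycn was 1.78-fold higher in Id1KO than in WT (0.83 ± 0.088, adjusted p = 1.61e-06), 1.34-fold higher in Tet2KO (0.42 ± 0.092, adjusted p = 0.00139) and 1.38-fold higher in dKO (0.47 ± 0.092, adjusted p = 0.0011). It was 1.29-fold lower in dKO than in Id1KO (-0.37 ± 0.085, adjusted p = 0.00418). Of its relatives, Myc, which drives growth in dividing progenitors, was far more abundant at 224.0 to 259.0 CPM by genotype and moved by at most 0.14 in log2 where it was called. Mycl, the third member of the family, stood at 2.82 ± 0.57 CPM in WT and 5.61 ± 1.4 in Tet2KO, 0.98 ± 0.19 higher in log2 (adjusted p = 0.000493), with Id1KO at 2.71 ± 0.27.

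Mllt3 was the only one of the 10 members called lower in Tet2KO than in WT. Its level was 28.3, 30.2 and 29.5 CPM in the WT libraries, 21.6, 22.4 and 22.0 with the Tet2KO label, 28.3, 26 and 32.6 with Id1KO, and 29.2, 31.0 and 28.4 with dKO. The 3 Tet2KO libraries lay below all 9 others, which overlapped among themselves. Mllt3 was 1.33-fold lower in Tet2KO than in the WT libraries (-0.41 ± 0.069, adjusted p = 0.000108) and 1.34-fold higher in dKO than in Tet2KO (0.42 ± 0.07, adjusted p = 0.000149). The remaining 3 comparisons gave log2 fold changes of -0.02 to 0.03 with SE of 0.065 to 0.067. Dot1l, the methyltransferase that MLLT3 recruits, had another order: 57.2 ± 6.7 CPM in the WT libraries, 64.7 ± 0.99 with the Tet2KO label, 54.7 ± 2.9 with Id1KO and 73.4 ± 3.5 with dKO. It was 0.42 ± 0.06 higher in log2 in dKO than in Id1KO (adjusted p = 3.76e-05). The nearest relative, Mllt1 (ENL), was not called in any of the 5 comparisons.

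The ligand Angpt1 was measured with the smallest errors of the set, from 1147 to 1862 counts per library. It stood at 84.7, 86.8 and 84.0 CPM in the WT libraries, 94.1, 97.4 and 94.5 with the Tet2KO label, 95.3, 96.9 and 93.8 with Id1KO, and 72.7, 76.2 and 74.8 with dKO. Each single null was above WT and dKO was below WT, with no overlap, and the Tet2KO and Id1KO libraries overlapped each other. The gain was 1.12-fold in Tet2KO (0.16 ± 0.031, adjusted p = 0.000453) and 1.12-fold in Id1KO (0.16 ± 0.031, adjusted p = 0.00115). In dKO, Angpt1 was 1.14-fold lower than in WT (-0.19 ± 0.032, adjusted p = 0.000245), 1.28-fold lower than in Tet2KO (adjusted p = 1.16e-07) and 1.28-fold lower than in Id1KO (adjusted p = 1.02e-07). The antisense gene Gm17473 shares 737 bases of exon with Angpt1. The strand setting of the counting is not given in the sources used here, so how reads in these bases were divided was not tested. Angpt2, the ligand often opposed to it, had at most 1 count in any library.

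The receptor Tek was higher wherever the Tet2KO label was present. It stood at 4.87, 5.41 and 5.73 CPM in the WT libraries, 8.76, 9.23 and 9.32 with the Tet2KO label, 5.93, 5.98 and 4.79 with Id1KO, and 9.19, 8.50 and 8.09 with dKO. All 6 libraries with the Tet2KO label in single or double form lay above the other 6. Tek was 1.71-fold higher in Tet2KO than in the WT libraries (0.77 ± 0.11, adjusted p = 1.37e-05), 1.61-fold higher in dKO than in WT (0.69 ± 0.11, adjusted p = 0.000118) and 1.54-fold higher in dKO than in Id1KO (0.62 ± 0.11, adjusted p = 0.000307). Id1KO against WT gave 0.06 ± 0.11 (adjusted p = 0.764) and dKO against Tet2KO gave -0.09 ± 0.10 (adjusted p = 0.587). With the 3 libraries of each genotype summed and 1 additive effect per label, the Tet2 label gave 0.70 ± 0.12 for Tek (edgeR adjusted p = 0.05). That is not under the threshold. The spread in this fit is the departure of the sums from additive effects, not the spread between libraries.

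Tie1, the partner receptor of TIE2, was also higher in both groups with the Tet2KO label: 24.6 ± 1.8 CPM in the WT libraries, 35.6 ± 1.8 with the Tet2KO label, 23.9 ± 2.1 with Id1KO and 32.8 ± 0.31 with dKO. It was 0.53 ± 0.064 higher in log2 in Tet2KO than in the WT libraries (adjusted p = 2.16e-06) and 0.46 ± 0.065 higher in dKO than in Id1KO (adjusted p = 3.57e-05). Endothelial cells also express this receptor pair. Over the 13 endothelial markers, of which 9 were tested, 1 (Tie1) was called higher and 2 lower in Tet2KO than in WT, where 16.6% and 16.2% of all genes were called. Their summed level ran from 217.0 to 226.0 CPM in the WT libraries, 236.0 to 240.0 with the Tet2KO label, 195.0 to 202.0 with Id1KO and 214.0 to 227.0 with dKO. The sum includes Tie1, whose own rise with the Tet2KO label is therefore part of it. Of these markers, Cldn5 had 0 counts in every library, Cdh5 at most 3, Ecscr at most 7, Stab2 at most 8 and Flt4 at most 12. Others were detected throughout, with 1559 to 2135 counts of Pecam1, 792 to 973 of Eng, 423 to 550 of Egfl7, 38 to 133 of Flt1, 40 to 95 of Plvap, 18 to 32 of Kdr and 10 to 20 of Emcn. The part of endothelial cells in the values of Tek and Tie1 was not tested. Stromal cells of the marrow also make Angpt1. Of 14 stromal markers, Col3a1 and Dcn had 0 counts, Lepr at most 2, and 11 stayed under 10 counts in every library. Their summed level, nearly all of it from Pdgfrb and Vcam1, was 58.7 to 63.6 CPM for WT and 62 to 64.3 for Tet2KO. It was 63.5 to 64.8 for Id1KO and lowest for dKO at 45.5 to 47.5. This pair did not move together. Pdgfrb stood at 29.0, 44.2, 33.4 and 32.5 CPM in WT, Tet2KO, Id1KO and dKO. Vcam1 stood at 30.3, 17.6, 29.5 and 12.7 CPM in the same order. The part of stromal cells in the values of Angpt1 was not tested.

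Slamf1, the CD150 antigen, was highest in Id1KO. It stood at 3.11, 2.27 and 2.81 CPM in the WT libraries, 2.76, 3.34 and 2.05 with the Tet2KO label, 3.24, 3.85 and 3.96 with Id1KO, and 2.79, 2.51 and 2.48 with dKO. The Id1KO libraries lay above the WT and the dKO libraries and overlapped those of Tet2KO. Slamf1 was 1.42-fold lower in dKO than in Id1KO (-0.51 ± 0.17, adjusted p = 0.0472), and Id1KO against WT did not pass (0.43 ± 0.17, adjusted p = 0.0905). The first call was lost in 7 of 12 fits that left out 1 library (WT 3, Tet2KO 1, Id1KO 2 or 3, or any of dKO), with adjusted p up to 0.135, and by DESeq2 (adjusted p = 0.14). Its transcripts also hold a stretch of up to 209 bases that is 95% or more identical to transcripts of 145 other genes, so part of its low count may be shared out in an uncertain way. Among its family, Cd244a, a partner receptor on progenitors, stood at 11 ± 0.66 CPM in the WT libraries, 15.1 ± 0.24 with the Tet2KO label, 11.9 ± 0.18 with Id1KO and 12.5 ± 0.44 with dKO, with a log2 fold change of 0.45 ± 0.071 in Tet2KO against WT (adjusted p = 6.13e-05).

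Esam, an adhesion molecule of endothelial and stem cell surfaces, was too scarce to order the groups. It stood at 1.04, 1.5 and 1.19 CPM in the WT libraries, 2.21, 1.43 and 1.40 with the Tet2KO label, 2.03, 1.82 and 1.27 with Id1KO, and 1.58, 1.5 and 2.07 with dKO. The 3 null groups had means of 1.68, 1.71 and 1.72 CPM against 1.24 in WT, and their libraries overlapped one another. The differences from WT of 0.42 to 0.47 in log2 had SE of 0.25 and did not pass (adjusted p = 0.216 to 0.238), which leaves changes of this size undetectable at this depth.

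Nrgn lies tail to tail with Esam on chromosome 9, 6172 bases away. It stood at 7.52, 5.83 and 6.65 CPM in the WT libraries, 6.31, 6.85 and 6.62 with the Tet2KO label, 6.31, 6.71 and 6.55 with Id1KO, and 5.58, 5.75 and 4.96 with dKO. The dKO libraries lay below all 9 others, yet none of the 3 comparisons passed: dKO against WT gave -0.30 ± 0.11 (adjusted p = 0.0755), against Tet2KO -0.28 ± 0.12 (adjusted p = 0.0794) and against Id1KO -0.27 ± 0.11 (adjusted p = 0.113). Without WT library 2 the first of these was called (-0.38, adjusted p = 0.0335).

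Ctnnal1 stood at 5.91, 5.67 and 4.54 CPM in the WT libraries, 5.33, 6.08 and 5.55 with the Tet2KO label, 5.71, 7.39 and 6.99 with Id1KO, and 5.96, 6.23 and 7.03 with dKO. The dKO libraries lay just above the WT libraries, and all other pairs of groups overlapped. No comparison passed. The largest difference was that of Id1KO against WT (0.32 ± 0.13, adjusted p = 0.0982), which was called without Id1KO library 1 (0.42, adjusted p = 0.043). Its relative Ctnna1 was 0.16 ± 0.043 higher in log2 in dKO than in Tet2KO (adjusted p = 0.00832).

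The design allows the change with the Id1 label to be compared between cells without and with the Tet2 label. The test of this difference is the interaction, the log2 fold change of dKO against Tet2KO minus that of Id1KO against WT. It was called lower for 4 members (Angpt1, Hlf, Mecom, Mycn) and higher for 1 (Mllt3), where 7.03% of all genes were called lower and 7.46% higher. Angpt1 rose with the Id1 label in the absence of the Tet2 label and fell in its presence, a difference of -0.52 ± 0.045 (adjusted p = 1.08e-07). Mycn rose by 0.83 without the Tet2 label and gave 0.04 with it, a difference of -0.79 ± 0.13 (adjusted p = 0.000243).

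The other 3 were called for the Id1 label where the Tet2 label was present and not where it was absent, and the interaction tests that contrast. Hlf gave -0.13 without the Tet2 label and -0.59 with it, a difference of -0.47 ± 0.12 (adjusted p = 0.015; DESeq2 0.054). Mllt3 gave -0.02 and 0.42, a difference of 0.44 ± 0.096 (adjusted p = 0.00386). Mecom gave 0.10 and -0.54, a difference of -0.64 ± 0.20 (adjusted p = 0.0424), and this call was the least firm. It was lost in 9 of 12 fits that left out 1 library, remaining only without WT library 3, Id1KO library 2 or dKO library 2, with adjusted p up to 0.106, and DESeq2 gave 0.146. The interaction of Tek was -0.15 ± 0.15 (adjusted p = 0.58). The median interaction of the 10 members was -0.44, against 0.01 over all genes tested.

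**Figure D3:**
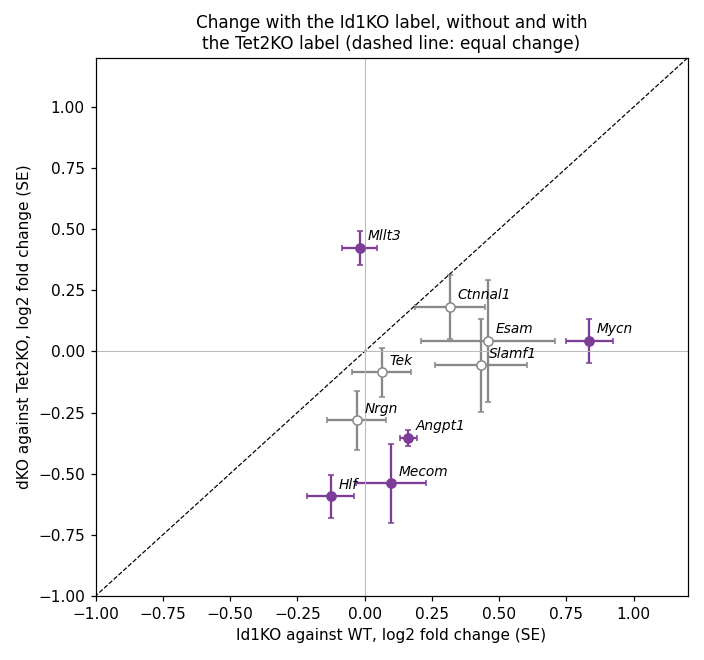
Log2 fold change with the Id1KO label without the Tet2KO label (horizontal axis, Id1KO against WT) and with it (vertical axis, dKO against Tet2KO) for each member; whiskers are SE, the dashed line marks equal change, and filled purple points have a called interaction. Mllt3 lies above the line and Angpt1, Hlf, Mecom and Mycn lie below it, while Tek lies near the origin.

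A wider list of 54 other genes tied to stem cells, 47 of them tested, gives the setting of these changes. In Tet2KO against WT, 25 were higher and 6 lower (16.6% and 16.2% of all genes), with a median log2 fold change of 0.23. Among those called, the 3 highest were Clec1a (1.46 ± 0.30), Hmga2 (1.44 ± 0.15), a chromatin protein of fetal stem cells, and Gimap8 (1.31 ± 0.25). All were scarce, with 7 to 26 counts per library for Clec1a, 28 to 114 for Hmga2 and 13 to 38 for Gimap8. The 3 lowest were Gfi1b (-0.89 ± 0.046), a repressor of the erythroid and megakaryocyte lines, Tgm2 (-0.48 ± 0.093) and Tal1 (-0.24 ± 0.031), a bHLH factor that stem cells share with erythroid cells. The list thus holds genes of other lineages as well.

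In Id1KO against WT, 9 of the 47 were higher and 6 lower (7.26% and 7.77% of all genes), with a median of 0.01. Among those called, Prdm16, the closest relative of Mecom, was highest with 1.07 ± 0.16 (adjusted p = 0.000116), from 2.22 ± 0.41 to 4.67 ± 0.52 CPM, ahead of Vldlr (0.89 ± 0.16) and Trpc6 (0.82 ± 0.12). Mecom itself gave 0.10 ± 0.13 in the same comparison. Cd34, the sialomucin of progenitors, fell by 0.28 ± 0.025. In dKO against WT, 12 were higher and 6 lower (median 0.08), where 10.2% and 8.97% of all genes were called. Hmga2 was highest of those called (1.07 ± 0.15), with Erg, an ETS factor needed by stem cells, lowest at -0.28 ± 0.039.

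In dKO against Tet2KO, 4 of the 47 were higher and 17 lower (13.1% and 13.4% of all genes), with a median of -0.13. Among those called, Robo4, a receptor that helps to keep stem cells in the marrow, was lowest at -1.25 ± 0.30 (adjusted p = 0.00436), and Gfi1b (0.77 ± 0.048) and Tgm2 (0.96 ± 0.09) were highest. Robo4 had only 4 to 33 counts per library. In dKO against Id1KO, 8 were higher and 9 lower (median 0.05; 10.6% and 8.7% of all genes). Among those called, Hmga2 was highest (1.25 ± 0.16) and Gata2, a zinc finger factor of stem cells and mast cells, lowest (-0.44 ± 0.046). The interaction was called higher for 2 and lower for 12 (7.46% and 7.03% of all genes), among them Vldlr (-1.04 ± 0.23), Prdm16 (-0.85 ± 0.23) and Trpc6 (-0.76 ± 0.17).

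**Figure D4:**
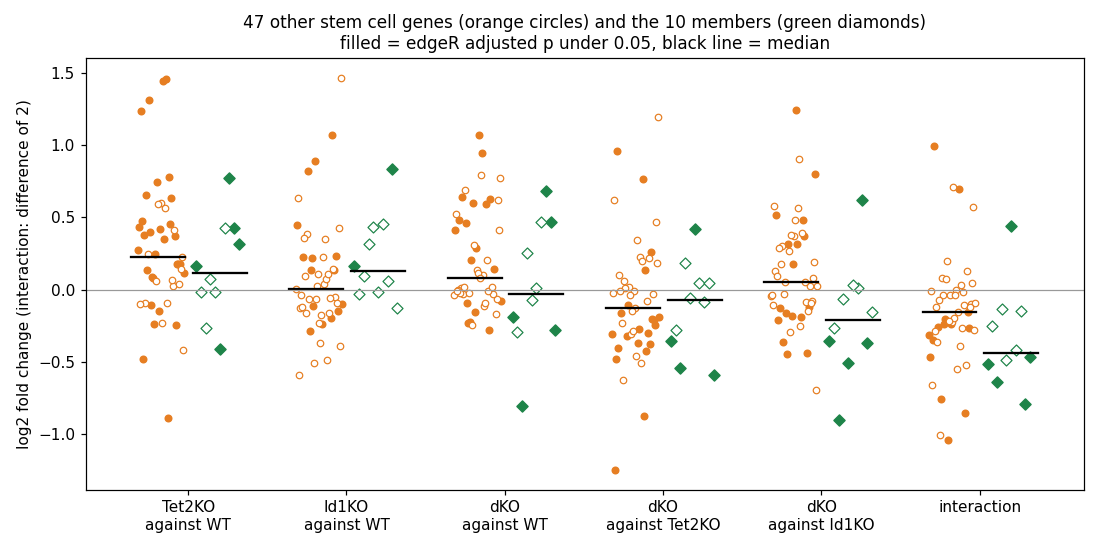
Log2 fold change (vertical axis; for the interaction, the difference of 2 log2 fold changes) of the 47 other stem cell genes tested (orange circles) and the 10 members (green diamonds) in each comparison; filled points are called by edgeR and black lines are medians. The median line of the other stem cell genes sits at 0.23 for Tet2KO against WT and below 0, at -0.13, for dKO against Tet2KO.

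Of 25 relatives and partners of the members, 20 were tested. In Tet2KO against WT, 6 were called higher and 3 lower (16.6% and 16.2% of all genes). Among those called, Mycl, Tie1 and Cd244a were highest and Arhgef12 was lowest (-0.44 ± 0.066, adjusted p = 3.81e-05). In Id1KO against WT, 3 were higher (Prdm16, Max, Myc) and 0 lower (7.26% and 7.77% of all genes). In dKO against WT, 4 were higher and 2 lower (10.2% and 8.97% of all genes). The lower pair included Tef, a PAR bZIP factor like HLF, at 30.5 ± 1.4 CPM in WT and 25.6 ± 1.1 in dKO (-0.25 ± 0.057, adjusted p = 0.00314). Against Tet2KO, 4 were higher in dKO and 5 lower (13.1% and 13.4% of all genes), with Arhgef12 highest (0.47 ± 0.067, adjusted p = 3.04e-05). Against Id1KO, 3 were higher (Mycl, Tie1, Dot1l) and 2 lower (Prdm16, Tef), where 10.6% and 8.7% of all genes were called.

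Markers of other progenitors moved between the same groups, and their part in the changes of the members was not tested. Of 14 erythroid markers, 13 were lower in Tet2KO than in WT (16.2% of all genes) and 13 were higher in dKO than in Tet2KO (13.1%). Their summed level was 1871 to 1928 CPM in the WT libraries, 1133 to 1152 with the Tet2KO label, 2088 to 2109 with Id1KO and 1892 to 1896 with dKO. Of 9 markers of multipotent and lymphoid-primed progenitors tested, 8 were higher in Tet2KO than in WT (16.6% of all genes) and 8 were lower in dKO than in Tet2KO (13.4%). Their sums were 825.0 to 836.0, 984.0 to 988.0, 735.0 to 751.0 and 855.0 to 861.0 CPM in the same order of groups. No marker of either list was at 0 counts in all libraries.

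The sum of the megakaryocyte markers was highest in Id1KO. It was 200 to 209 CPM in WT, 201 to 210 in Tet2KO, 266 to 281 in Id1KO and 201 to 218 in dKO. Of the 11 tested, 4 were higher and 1 lower in Id1KO than in WT (7.26% and 7.77% of all genes). In dKO against Id1KO, 8 were lower and 1 higher (8.7% and 10.6% of all genes). Of 14 mitosis genes, 9 were higher in Id1KO (7.26% of all genes) and 13 in dKO (10.2%) than in WT, and 13 were higher in dKO than in Tet2KO (13.1%). Their sums ran from 2746 to 2791, 2858 to 2887, 2922 to 2998 and 3058 to 3137 CPM in the same order. Mast cell and basophil markers share Gata2 with stem cells. They summed to 293 to 302, 297 to 306, 289 to 300 and 261 to 268 CPM, and this sum was lowest in dKO. Of the 7 tested, 3 were lower and 1 higher in dKO than in WT (8.97% and 10.2% of all genes). Monocyte and dendritic markers summed to 1923 to 1991, 2191 to 2240, 1752 to 1760 and 2140 to 2174 CPM. This sum was higher in both groups with the Tet2KO label. Of the 10 tested, 5 were higher and 1 lower in Tet2KO than in WT (16.6% and 16.2% of all genes). In dKO against WT, 4 were higher and 1 lower (10.2% and 8.97% of all genes). In dKO against Id1KO, 6 of the 10 tested were higher and 0 lower (10.6% and 8.7% of all genes). Neutrophil markers summed to 14538 to 14614, 16018 to 16255, 12334 to 13298 and 12105 to 13282 CPM. Lymphoid markers summed to 172 to 176, 192 to 194, 162 to 166 and 143 to 154 CPM. The part of these lists in the members' values was not tested.

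The pair of members with the widest range of genotype means, Mecom and Mycn, were set beside all other tested genes with a mean of at least 5 CPM. Likeness was the root mean square difference of log2 CPM over the 12 libraries, each gene centred on its own mean. Nearest to Mecom were Lin28a (0.145), Rab10os (0.158) and Ms4a2 (0.161), the last of which encodes a chain of the IgE receptor on mast cells and basophils. Ms4a2 stood at 31.0, 23.4, 30.4 and 19.9 CPM in WT, Tet2KO, Id1KO and dKO. Nearest to Mycn were Pim1 (0.111), a serine/threonine kinase, Trpc6 (0.13) and Lysmd3 (0.148). Pim1 stood at 103.0, 117.0, 157.0 and 132.0 CPM in the same order. The points share libraries and depth, and the likeness is a description.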

How the data were processed

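Total RNA of sorted cells was prepared with a stranded, ribosome-depleted kit, per the labels' protocols. The authors deposited 1 table of estimated counts per gene, and STAR, RSEM and mm10 are named in the submitters' processing notes. Strand settings and versions are not given in the sources used here. Of all genes, 8.245% had a value that was not whole, so estimated counts were rounded. All 55450 identifiers matched GENCODE M21 (GRCm38). edgeR 4.0.16 in R 4.3.3 was run with filterByExpr (minimum count 10, leaving 14346 genes), trimmed-mean (TMM) scaling, 1 mean per genotype over 12 libraries, quasi-likelihood tests and Benjamini-Hochberg adjustment over all genes tested, with 0.05 as threshold; code was tested on simulated data. An SE is the log2 fold change divided by the square root of F. Alternatives included DESeq2 1.42.0, other scalings and filters, and single libraries left out. Within genotypes, chi-square per degree of freedom was 1.524 to 5.35 over 12 pairs of libraries, so none was merged. Shared stretches were found with BLAST 2.17.0. The members, lists and tests were chosen with earlier results of these data known. Named genes were all members, at most 3 called genes at either end of each list, nearest relatives, and the 3 nearest profiles of 2 members.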

Additional observations from a re-analysis of the deposited data

Results flagged for a closer look

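The change with the Id1 label differed between libraries without and with the Tet2 label for 5 of the 10 members, by edgeR's interaction test with Benjamini-Hochberg adjustment. The difference in log2 fold change was -0.516 for Angpt1, -0.467 for Hlf, -0.638 for Mecom, 0.442 for Mllt3 and -0.791 for Mycn. Angpt1 is the member whose pair of changes were both called and had opposite signs: 0.16 in Id1KO against WT and -0.35 in dKO against Tet2KO. The interaction of Mecom, with 33 to 92 counts per library, had the highest adjusted p of the 5 (0.0424).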

How the results depend on the processing

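Counts of members called were the same or within 1 under other scalings, other filters and single comparisons fitted alone. The replicate block gave 5, 2, 5, 4, 4 and 5 members called (Tet2KO, Id1KO and dKO against WT, dKO against Tet2KO and Id1KO, interaction), where the fit without it gave 5, 2, 5, 4, 5 and 5. With the block, 4523, 1952, 2565, 3592, 2576 and 1871 of all genes were called in the same order. Among the members, the call lost with the block was Slamf1 in dKO against Id1KO (adjusted p = 0.0647). Deviations of libraries from the mean of their genotype were set against each other between genotypes. Correlations were weak and of either sign, at -0.097 to 0.113 for same-numbered libraries and -0.104 to 0.174 for others. What the endings of the titles stand for cannot be told from these values. Beyond 1.2-fold, the counts were 1, 1, 2, 1, 3 and 2. For the interaction, 3 members were called at a threshold of 0.01 and 3 by DESeq2. With libraries summed per genotype and 1 additive effect per label (added after the data were seen), edgeR called 0 members for either label. An interaction counts as error in that fit, so it cannot decide on members whose interaction was called. In that fit, 232 of all genes tested were called for the Tet2 label and 7 for the Id1 label. By the same edgeR test, 2 members had an unadjusted p under 0.05 for the Tet2 label and 1 for the Id1 label. Over all genes, the interaction was called for 2078 by edgeR and 1342 by DESeq2. Beyond 1.2-fold, 769, 140, 477, 334, 481 and 237 genes were called where the usual test called 4699, 2156, 2754, 3793, 2762 and 2078, and a threshold of 0.01 left 3122, 1085, 1557, 2285, 1599 and 972.

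Leaving out 1 library moved the median log2 fold change of the members between -0.157 and -0.059 in dKO against Tet2KO, between -0.07 and 0.01 in dKO against WT (across 0) and between -0.515 and -0.357 for the interaction. Signs of single members turned only where they were not called. In Tet2KO against WT, Slamf1 ran from -0.188 to 0.165, Nrgn from -0.098 to 0.087 and Ctnnal1 from -0.03 to 0.148. In Id1KO against WT, Nrgn ran from -0.115 to 0.07 and Mllt3 from -0.107 to 0.056. In dKO against WT, Mllt3 ran from -0.026 to 0.042 (-0.003 with no filter) and Slamf1 from -0.189 to 0.034. In dKO against Tet2KO, Slamf1 ran from -0.236 to 0.118, Esam from -0.116 to 0.28 and Mycn from -0.001 to 0.099. In dKO against Id1KO, Mllt3 ran from -0.048 to 0.12, Ctnnal1 from -0.166 to 0.011 and Esam from -0.163 to 0.149. Of the single-member values under alternatives, 1234 kept sign and side of the threshold, 51 lost a call, 2 gained one and 23 turned sign. Depth limits Esam (20 to 37 counts), Slamf1 and Mecom most.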
